A study of Arabidopsis thaliana with 14 samples.

Results

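The C-repeat binding factors CBF1 (AT4G25490), CBF2 (AT4G25470), CBF3 (AT4G25480, also called DREB1A) and CBF4 (AT5G51990) are DNA-binding activators of the plant response to cold and water deficit. CBF1, CBF2 and CBF3 are switched on within a short time of a drop in temperature and bind the C-repeat element in the promoters of COLD-REGULATED (COR) genes, whose products raise freezing tolerance. CBF4 is known for its induction by drought and abscisic acid rather than by cold. The first 3 stand in tandem on chromosome 4, and CBF4 lies alone on chromosome 5. FLM is a MADS-box repressor of flowering whose transcript is spliced differently at different temperatures, so that it too belongs to the temperature responses of the plant.

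Binding of GFP-tagged FLM was mapped by ChIP-seq, the sequencing of DNA that comes down with a protein, in whole Columbia-0 seedlings, in 14 libraries from 6 groups. The gFLM-GFP group had 3 libraries, set against 3 libraries of plants with untagged FLM, all from seedlings of 15 days grown at 16 °C. The iFLMbeta-GFP group and the iFLMdelta-GFP group stand for the 2 splice variants and had 2 libraries each, each set against 2 control libraries of its own, all from seedlings of 10 days grown at 23 °C. All plants were kept under long days and collected 8 h after lights on (zeitgeber time 8). The protocol, common to all libraries, names an antibody to GFP. Each GFP library also carries that antibody as a label of its own, except gFLM-GFP replicate 2, which was placed in its group by its title. The titles carry a code for each group, and in the variants a suffix for each library, but what these stand for is not stated. Beyond these codes, the labels give neither the promoter of any construct nor the line behind the controls. They also do not say whether libraries came from separate plant pools. The spread behind each p-value is therefore that between libraries and may be technical only. gFLM against iFLMbeta mixes construct with age and temperature, and these cannot be told apart.

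A region was taken as a CBF region where a CBF gene overlapped its centre, or was its nearest gene on either side at 5000 bp or less. This gave 12 of 43690 deposited regions, namely 8 of 19893 for gFLM, 3 of 13791 for iFLMbeta and 1 of 10006 for iFLMdelta. The farthest of them lay 3600 bp from its CBF gene, and 0 regions named a CBF gene at more than 5000 bp. Each region is called here by its nearest CBF gene and by the side of that gene on which its centre lies. Coordinates are those of build TAIR10. Summed over the deposited regions, libraries held 17293 to 437712 reads in gFLM, with replicate 2 lowest in both groups, 52819 to 194811 in iFLMbeta and 71083 to 211113 in iFLMdelta. These sums are not sequencing depths, which the tables do not hold.

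gFLM regions dotted the whole tandem cluster. All 3 genes of the cluster are read from right to left in chromosome coordinates, and each of the 3 had 1 gFLM region upstream and 1 past its end. The regions upstream of CBF1 and of CBF2 were the 2 that passed, where passing means a q-value of 0.05 or less in every replicate in the authors' deposited table. Over all deposited gFLM regions 0.799% passed. At 5 of the 8 CBF regions q was 0.05 or less in at least 1 replicate, as it was at 13.3% of all gFLM regions. The cluster regions spread over 9203 bp, and of 19879 windows of that length, each starting at a deposited gFLM region, 1.06% held at least 6, where the median was 2. The same stretch held 3 iFLMbeta regions, a count that 27.8% of the iFLMbeta windows reached. It held 1 iFLMdelta region, which says nothing, because every window starts at a region and so holds at least 1. The window length was set by the outer edges of the 6 gFLM regions themselves, so these shares are a description and no test.

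**Figure D1:**
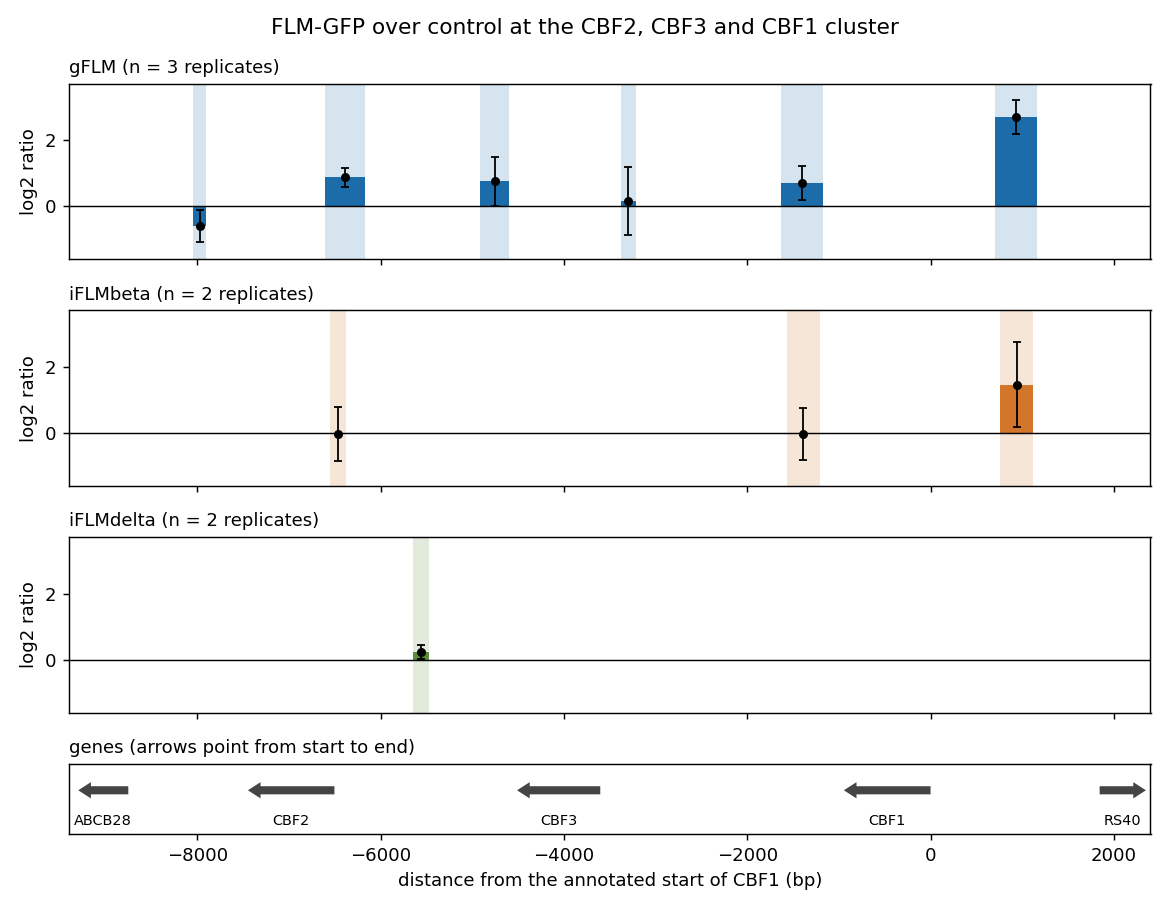
Log2 ratio of GFP over control reads, averaged over replicates (y axis, bars and points, error bars SD over replicates) of each deposited region in the CBF cluster against distance from the annotated start of CBF1 in bp (x axis), with shaded bands marking the width of each region and gene arrows in the lowest panel (ABCB28 and RS40 are drawn in part). The highest bar in the gFLM and iFLMbeta panels, at 2.69 and 1.46, is the region upstream of CBF1, while the single iFLMdelta region stands at 0.24 in the gap between CBF2 and CBF3.

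The region upstream of CBF1 was the strongest CBF region. It covers chromosome 4, 13023431 to 13023884, in the gap of 1844 bp between CBF1 and RS40 (AT4G25500), a splicing factor of the serine/arginine-rich family that is read in the opposite direction. Its centre lies 932 bp from the start of CBF1 and 913 bp from that of RS40, so that position alone assigns it to neither gene. gFLM-GFP libraries held 299, 82 and 74 reads there, against 20, 1 and 19 reads in the control libraries. Per 100000 reads in deposited regions, this came to 68.3, 110 and 47.0 in GFP, against 11.0, 5.78 and 9.58 in control. Every GFP library was above every control library, and the lowest GFP value belonged to replicate 3. Of all deposited gFLM regions, 4.63% had groups that did not overlap, and CBF regions with this property numbered 2 of 8.

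GFP reads were 93.7% of the reads of both libraries at this region in replicate 1 (95% Wilson interval 90.5 to 95.9), against 70.6% over all deposited regions. The share was 98.8% in replicate 2 (93.5 to 99.8), against 81.2%, and 79.6% in replicate 3 (70.3 to 86.5), against 44.3%. In each of the 3 replicates the interval lay above the share over all regions. These intervals cover counting error only, and reads amplified by PCR without molecular identifiers are not independent molecules. The log2 ratio of GFP to control reads, with 1 read added to each and scaled to the reads in all deposited regions, was 2.58, 3.26 and 2.24 in the 3 replicates. Its mean was the 25th highest of the 19893 regions, and the authors' deposited table ranks the region 19th.

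edgeR's quasi-likelihood test gave the region upstream of CBF1 a log2 fold of 2.93 and an adjusted p of 0.0194. It was the 1 CBF region called among the 6 that passed the filter on low counts, where 0.574% of all tested gFLM regions were called higher in GFP. Regions were deposited because they had been called on these same libraries, so this test describes how firmly the counts separate the groups and is no independent evidence of binding. The call was lost without any 1 of the GFP libraries of replicate 1 (adjusted p = 0.416), 2 (1) or 3 (0.156), without the control library of replicate 3 (0.299), without both libraries of replicate 2 (0.62), with scaling by total reads (0.0518) and without the filter (1), while the log2 fold stayed between 2.62 and 3.17. The call was kept with the replicate numbers as a block (7.36e-05), with RLE size factors (0.0268) and with library sizes recomputed after the filter (0.00756). It was also kept without the control library of replicate 1 (0.000892) or 2 (0.0353), and with DESeq2 in place of edgeR (0.000426). Over all alternatives the adjusted p ran from 7.36e-05 to 1.

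**Figure D2:**
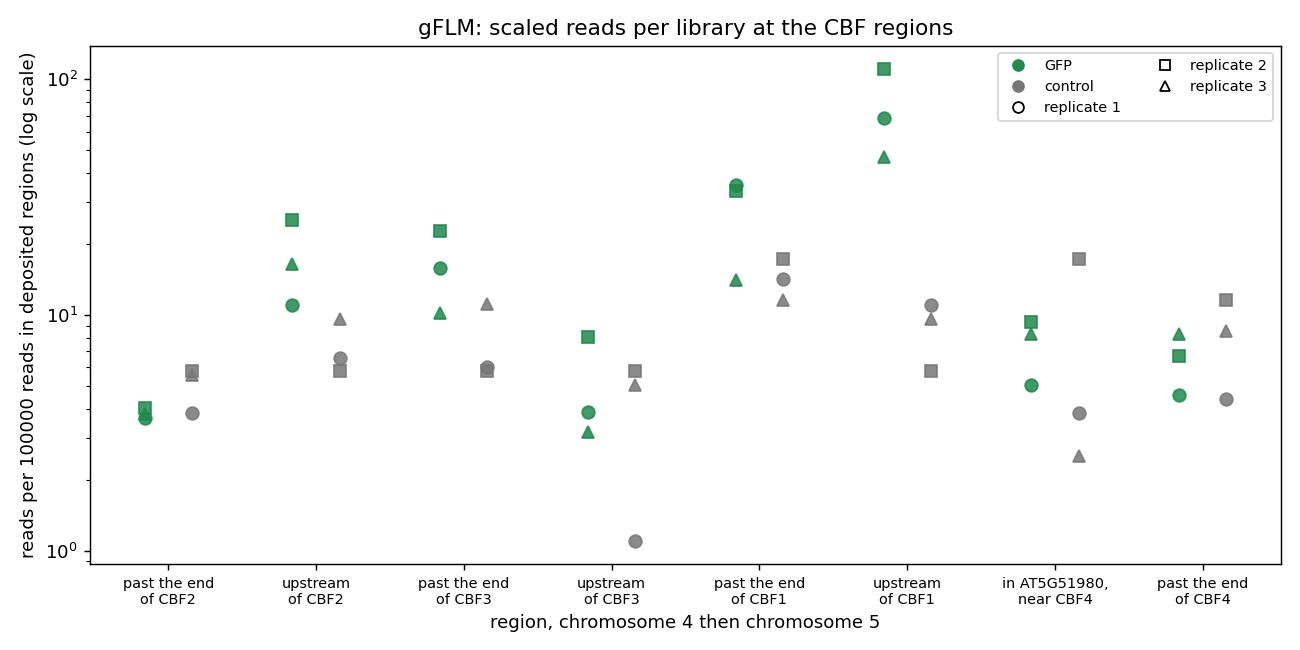
Reads per 100000 reads in deposited regions (y axis, log scale) in each gFLM library at the 8 CBF regions (x axis, in chromosome order), with GFP libraries in green to the left of control libraries in grey and a symbol for each replicate. GFP and control points stand fully apart at the regions upstream of CBF1 and upstream of CBF2, where GFP values start at 47.0 and 11.0, and they overlap at the other 6.

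The region upstream of CBF2 passed in every replicate with far fewer reads. It covers chromosome 4, 13016119 to 13016550, and 103 of its 432 bases lie inside CBF2 as annotated in the table, with the centre 114 bp upstream of the start. gFLM-GFP libraries held 48, 19 and 26 reads, against 12, 1 and 19 reads in control libraries, or 11.0, 25.4 and 16.5 per 100000 against 6.57, 5.78 and 9.58. Every GFP library was again above every control library, but by less than at CBF1. The log2 ratio was 0.65, 1.21 and 0.77 in the 3 replicates, with a mean of 0.88 and an SD of 0.29. With 5 reads added in place of 1 the mean was 0.32. q was 0.0322, 0.01 and 0.00844 in the authors' deposited table, at rank 229. edgeR did not call the region (log2 fold 1.12, adjusted p = 0.918, and 0.518 to 1 over the alternatives). CBF1, CBF2 and CBF3 have similar coding sequences, and how reads that align to more than 1 copy were counted is not given in the sources used here, which bears on the bases inside CBF2.

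CBF3 had no passing region of its own. The nearest region upstream of it, 307 bp from its start (chromosome 4, 13019350 to 13019508), held 17, 6 and 5 GFP reads, against 2, 1 and 10 control reads, too few to pass the filter for edgeR. Its log2 ratio was 1.32 in replicate 1, -0.30 in replicate 2 and -0.54 in replicate 3. The sign in replicate 2 rests on the added read, as scaled reads there were 8.03 per 100000 in GFP and 5.78 in control. Replicate 3 was lower in GFP in scaled reads too (3.18 against 5.04), so the replicates did not share a direction. Among regions beyond its end, the closest (241 bp, chromosome 4, 13017815 to 13018131) held 69, 17 and 16 GFP reads, against 11, 1 and 22 control reads. There the ratio was 1.28 and 1.06 in replicates 1 and 2 and -0.10 in replicate 3, and the authors' deposited table gives q of 7.96e-05, 0.0234 and 0.247. This region is also 1752 bp upstream of CBF2, the next gene on that side. edgeR gave it an adjusted p of 0.94 (0.601 to 1 over the alternatives).

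The region past the end of CBF1, 456 bp from that end and 2202 bp upstream of CBF3 (chromosome 4, 13021092 to 13021556), held the second most GFP reads of the CBF regions. GFP libraries had 156, 25 and 22 reads, against 26, 3 and 23 control reads. Scaled, these were 35.6, 33.4 and 14.0 per 100000 in GFP against 14.2, 17.3 and 11.6 in control, so that replicate 3 of the GFP group fell among the controls. The log2 ratio was 1.28, 0.59 and 0.27, above 0 in all 3 replicates, as it was at 3 of the 8 CBF regions and at 4.95% of all gFLM regions. q was 1.49e-10, 0.00981 and 0.0793 in the authors' deposited table, so the region missed the threshold in replicate 3 alone. edgeR gave an adjusted p of 0.94 (0.577 to 1 over the alternatives). The last region of the cluster, 526 bp past the end of CBF2 (chromosome 4, 13014682 to 13014819), had 16, 3 and 6 GFP reads, against 7, 1 and 11 control reads, and ratios below 0 in each replicate (-0.17, -1.11 and -0.45).

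Within the cluster the reads were unevenly spread. The region upstream of CBF1 held 49.4%, 53.9% and 49.7% of the GFP reads of the 6 regions in replicates 1 to 3, against 25.6%, 12.5% and 18.3% of the control reads. The control libraries had only 78, 8 and 104 reads over the 6 regions, so the share in control replicate 2 rests on 1 read. Per 100 bp of region, GFP replicate 1 had 65.9 reads upstream of CBF1, 33.5 past the end of CBF1, 21.8 past the end of CBF3 and 10.7 to 11.6 at the other 3 regions. The region upstream of CBF1 was also the densest in replicates 2 and 3, at 18.1 and 16.3 GFP reads per 100 bp, but the order below it was not kept. In replicate 2 the regions past the ends of CBF1 and CBF3 were level (5.38 and 5.36), and in replicate 3 the region upstream of CBF2 (6.02) was above both (4.73 and 5.05).

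CBF4, the relative outside the cluster, had no passing gFLM region and no region upstream. A region 780 bp past its end (chromosome 5, 21116197 to 21116469) held 20, 5 and 13 GFP reads, against 8, 2 and 17 control reads, with ratios of -0.04, -1.11 and -0.03. The sign in replicate 1 rests on the added read, as scaled reads there were 4.57 per 100000 in GFP and 4.38 in control. The other region lies inside AT5G51980, 3600 bp past the end of CBF4 (chromosome 5, 21113423 to 21113602). It held 22, 7 and 13 GFP reads, against 7, 3 and 5 control reads, and its ratios ran from -1.11 in replicate 2 to 1.55 in replicate 3. Neither region separated GFP from control, and edgeR called neither (adjusted p = 0.986 and 0.94).

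**Figure D3:**
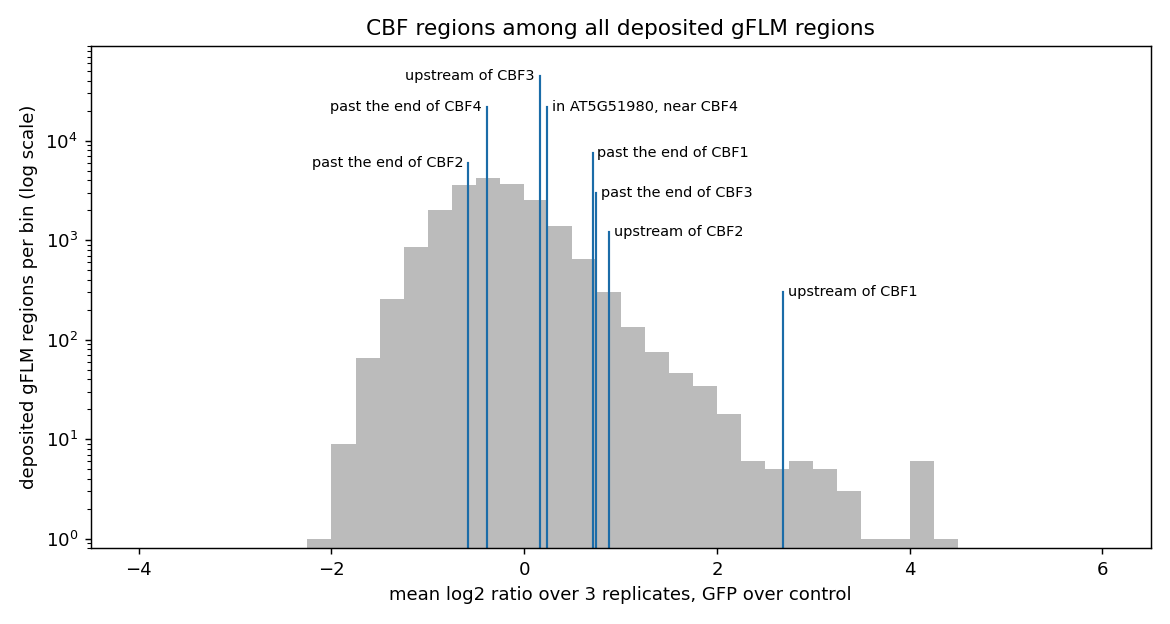
Number of deposited gFLM regions (y axis, log scale) by log2 ratio of GFP over control reads, averaged over 3 replicates (x axis), with vertical lines at the 8 CBF regions, whose height has no meaning. The region upstream of CBF1, at 2.69, lies in the far right tail, the regions upstream of CBF2 and past the ends of CBF3 and CBF1 lie between 0.71 and 0.88, and the other 4 lie between -0.58 and 0.24.

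Over the 8 gFLM CBF regions the median of the mean log2 ratios was 0.48 with a range of -0.58 to 2.69, beside a median of -0.31 over all deposited gFLM regions. The 2 passing regions and those past the ends of CBF3 and CBF1 were all within the top 3.52% of regions by this ratio. The region past the end of CBF2 had 71.9% of regions at or above it. For the 6 CBF regions tested by edgeR the median log2 fold was 0.96, beside -0.12 over all tested regions.

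At 23 °C, both iFLMbeta-GFP libraries had more scaled reads than their controls upstream of CBF1, and the other 2 iFLMbeta CBF regions did not separate from control. The region there (chromosome 4, 13023479 to 13023849) lies wholly within that of gFLM, with centres 6 bp apart. iFLMbeta-GFP libraries held 80 and 106 reads, against 30 and 5 in control libraries, or 41.1 and 58.3 per 100000 against 27.7 and 9.47. Both GFP libraries were above both control libraries, as at 12.5% of all iFLMbeta regions. It was the 1 CBF region of 3 that passed, where 1.46% of all iFLMbeta regions did, while 2 of the 3 reached q of 0.05 or less in at least 1 replicate, beside 16.1%. In order of rank, the authors' deposited table places it 32nd. With columns paired by number, the ratio was 0.54 in replicate 1 and 2.37 in replicate 2, and its SD of 1.29 became 0.59 with the control columns crossed. The first control library, at 27.7 per 100000, was the one closest to GFP. edgeR gave a log2 fold of 1.32 without a call (adjusted p = 0.708, and 0.474 to 1 over the alternatives), where 0.341% of tested iFLMbeta regions were called. Leaving out control library 1 gave a log2 fold of 2.36, and leaving out control library 2 gave 0.90.

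The iFLMbeta region upstream of CBF2 (chromosome 4, 13016171 to 13016349) held 12 and 24 GFP reads, against 10 and 4 control reads. Its ratio was -0.60 in replicate 1 and 0.54 in replicate 2. Past the end of CBF1 (chromosome 4, 13021158 to 13021518) there were 34 and 54 GFP reads, against 28 and 10 control reads, with ratios of -0.57 and 0.54. At both, the first GFP library was below both controls and the second above both in scaled reads. Of the 3 iFLMbeta CBF regions 1 had ratios above 0 in every replicate, beside 12.9% of all iFLMbeta regions. No iFLMbeta region met the rule at CBF4.

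**Figure D4:**
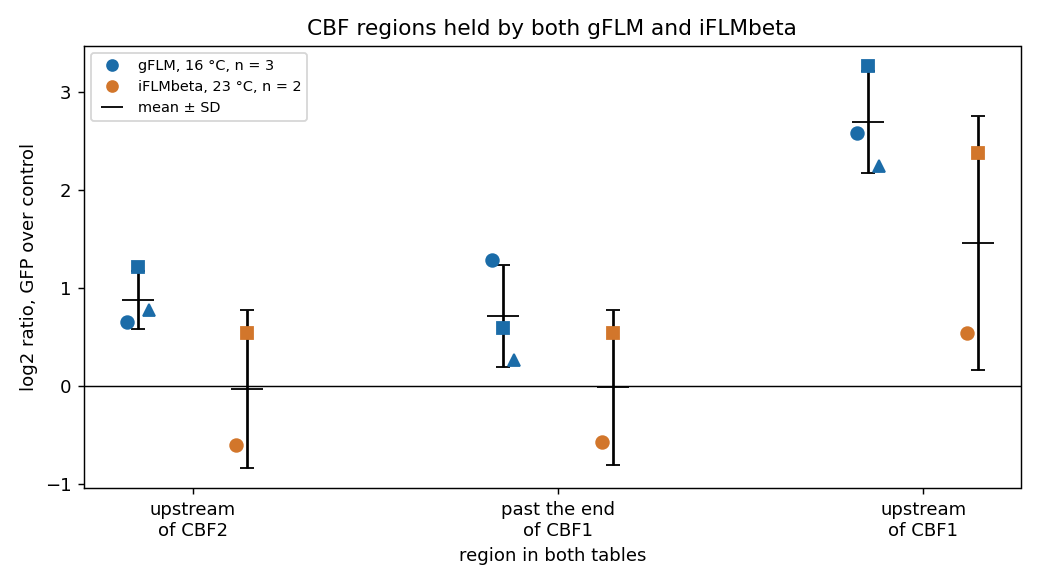
Log2 ratio of GFP to control reads (y axis) in each replicate at the 3 CBF regions that gFLM and iFLMbeta share (x axis), with gFLM to the left of iFLMbeta and bars for the mean ± SD. gFLM has 9 of 9 values above 0, while iFLMbeta has values of -0.60 and -0.57 in replicate 1 at the regions upstream of CBF2 and past the end of CBF1.

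The 2 constructs were compared directly at the 3 regions that overlap by 1 bp or more. gFLM enrichment exceeded that of iFLMbeta by 1.32 on the log2 scale upstream of CBF1, by 0.79 past the end of CBF1 and by 0.72 upstream of CBF2. None of these differences was called by the interaction term of edgeR (unadjusted p = 0.0664, 0.298 and 0.409, each with an adjusted p of 1 over 2161 tested pairs). Of all pairs 0 were called, with 28 at an unadjusted p under 0.05. The difference upstream of CBF1 fell to 0.48 without the first iFLMbeta control library and was 1.88 without the second.

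iFLMdelta had a single CBF region, in the gap between CBF2 and CBF3, at a place where no region of the other constructs lay. It covers chromosome 4, 13017083 to 13017255, 948 bp upstream of CBF2 and 1045 bp past the end of CBF3, and is separated by 532 bp from the nearest gFLM region and by 733 bp from the nearest iFLMbeta region. iFLMdelta-GFP libraries held 20 and 16 reads, against 7 and 8 in control libraries, or 9.47 and 15.7 per 100000 against 8.23 and 11.3, so the groups overlapped. The ratio was 0.08 and 0.40, above 0 in both replicates as at 17.9% of all iFLMdelta regions, and with the control columns crossed 1 of the replicates fell below 0. The region did not pass (q of 0.163 and 0.0901 in the authors' deposited table, where 0.41% of iFLMdelta regions passed in both replicates and 20.3% in at least 1), and edgeR did not call it (adjusted p = 1). edgeR called 0 of 4607 tested iFLMdelta regions, and before adjustment 6 were higher in GFP at p under 0.05. DESeq2, run on all 10006 regions, likewise called 0, and 7 were higher before adjustment. No iFLMdelta region overlapped a CBF region of the other constructs. The authors thus list no iFLMdelta region or counts upstream of CBF1, and the splice variants could not be compared there.

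The rest of the cold pathway was read through 45 listed genes in 4 groups, counting a gene where a passing region overlapped it or had it as nearest gene within 5000 bp. Of 18 regulators that act on CBF genes or their proteins, 2 had a passing region in gFLM, and the same 2 in iFLMbeta, namely SOC1, a MADS-box activator of flowering that also represses CBF genes, and PIF3, a light-signalling factor that does so too. Of 5 transcription factors induced by cold beside the CBFs, 1 had a passing region in both constructs, the heat shock factor gene HSFC1. None of 15 CBF target genes, such as COR15A, COR47 and RD29A, and none of 7 other DREB relatives had one. Of these, 10 and 6 had a deposited gFLM region. As 1.38% of all genes with a gFLM region passed, such short lists would mostly hold none, so these counts say nothing particular about them. In all 3 of 38 listed genes with a gFLM region passed, beside 1.38% of all genes with a region, and 3 of 32 in iFLMbeta, beside 2.1%. In iFLMdelta it was 0 of 26, beside 0.605%. The lists were chosen with earlier results of these data known, so these shares are a description and no test. By the same count CBF1, CBF2 and CBF3 had a passing region in gFLM, CBF3 only through the region upstream of CBF2 that lies 1879 bp past its end, and CBF1 alone had one in iFLMbeta.

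The passing region of HSFC1 lay past the end of the gene, at a distance of 1184 bp in gFLM (chromosome 3, 8943907 to 8944210) and 1222 bp in iFLMbeta. It held 142, 27 and 55 GFP reads, against 11, 2 and 14 control reads in gFLM, and 46 and 69 GFP reads, against 16 and 9 control reads in iFLMbeta. The log2 ratio was above 0 in every replicate, at 1.89 ± 0.67 in gFLM (SD, n = 3) and 0.82 ± 0.28 in iFLMbeta (SD, n = 2), and edgeR called neither (adjusted p = 0.207 and 1). The passing gFLM region of PIF3 lay inside the gene (chromosome 1, 3076900 to 3077218) and held 91, 23 and 22 GFP reads, against 6, 1 and 18 control reads. Its log2 ratio was above 0 in each gFLM replicate (2.46, 1.47 and 0.61), and edgeR did not call it (adjusted p = 0.486). In iFLMbeta the region of PIF3 held 50 and 37 GFP reads, against 28 and 8 control reads. Its ratios were -0.03 and 0.29 there, so that it passed on q without a ratio above 0 in both replicates, and edgeR gave an adjusted p of 1. Among the listed genes edgeR called SOC1 alone in gFLM and in iFLMbeta, of 19 and 29 genes with a tested region. Of all genes with one, 0.697% and 0.413% were called. In iFLMdelta it called 0 of 19, where no tested region was called.

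The profile of the region upstream of CBF1 over the 10 gFLM and iFLMbeta libraries was set beside those of all 2331 gFLM regions that overlap an iFLMbeta region, by Euclidean distance of scaled log2 reads. The nearest lay between AT3G03456 and AT3G03460 (chromosome 3, 822588 to 822943) at a distance of 1.37, where the median over regions was 8.14. The next 4 lay between AT5G41100 and AT5G41110 (1.66), 728 bp past the end of NAC3 (1.84), 38 bp past the ends of bZIP44 and AT1G75388 (1.89) and between AT3G02810 and AT3G02820 (1.90). Their mean log2 ratios ran from 2.03 to 3.00 in gFLM and from 0.78 to 2.61 in iFLMbeta. The libraries are those in which the regions were called, so this likeness is a description.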

How the data were processed

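For each construct the authors deposited a table of regions holding raw read counts per library, per the file headers. The authors also deposited q-values for each replicate, with Benjamini-Hochberg adjustment, and a score per region that combines them, a rank product on a log2 scale, with the rank it gives. Coordinates are on TAIR10, which the submitters' processing notes name. How reads were aligned, peaks called and duplicates treated is not given in the sources used here. Symbols came from the RefSeq gene table, which matched 4 of 4 CBF and 45 of 45 listed identifiers. No genome sequence was used here, so no region sequence is shown.

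Members and gene lists were chosen with earlier results of these data known. GFP and control counts were compared within each construct by edgeR 4.0.16 (R 4.3.3; TMM, filterByExpr, quasi-likelihood test, adjusted over all regions, threshold 0.05), with DESeq2 1.42.0 as an alternative and a check on simulated data. Ratios add 1 read and pair columns by number. For gFLM the labels give the numbers. By these numbers the replicate block is a paired fit. Deviations from the group mean had correlations of 0.489, 0.23 and 0.11 for same-numbered libraries, against -0.335 to 0.0515 for unlike numbers. Because the group mean was taken off, values for same and unlike numbers offset each other and are not separate evidence. The main edgeR fit leaves this pairing out. For iFLMbeta and iFLMdelta, columns name no single library. Same-numbered columns had correlations of -0.086 and -0.198, and crossed columns 0.086 and 0.198. With 2 libraries per group the 1 value is always the other with its sign turned, so this check cannot settle the pairing. 0 count columns were left without a sample or group. Rows cut short after the left gene (6.12%, 2.02% and 1.69% of the gFLM, iFLMbeta and iFLMdelta tables) have no right gene, and 0 of them lay within 10 kb of a CBF region. Named were all CBF regions, listed genes with passing regions and the 5 nearest profiles.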

Additional observations from a re-analysis of the deposited data

How the results depend on the processing

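Control reads were few at the gFLM CBF regions: control replicate 2 held 1 to 3 reads at each of the 8, so its ratios move with the reads added. With 5 reads added, 1 gFLM region kept ratios above 0 in every replicate in place of 3, and 0 iFLMdelta regions in place of 1, as with the control columns crossed (0). Without scaling, the iFLMbeta count was 3 in place of 1, and it ran from 1 to 3 without either replicate. CBF regions passing in gFLM numbered 1 at q of 0.01 or less, 5 where 1 replicate sufficed (beside 13.3% of all gFLM regions), and 2 to 4 without a replicate. In iFLMbeta they numbered 2 where 1 replicate sufficed (beside 16.1% of all iFLMbeta regions) and 1 to 2 without a replicate. Listed cold genes with a passing region numbered 3 to 6 without a gFLM replicate, 5 to 12 without an iFLMbeta replicate and 2 to 3 without an iFLMdelta replicate. Leaving out a replicate loosens the rule for every region and gene. Where no share over all regions or genes stands beside a count, it shows only how far the count depends on the setting. The regions edgeR called higher in gFLM (30) numbered 71 by DESeq2, 19 when scaled by total reads, 0 with no filter on low counts (277 at an unadjusted p under 0.05), 115 with the replicate block, and 6 to 44 without 1 library (10 without both libraries of replicate 2). In iFLMbeta (25) they numbered 14 without the filter, 14 with column numbers as a block, 0 with that block crossed (100 at an unadjusted p under 0.05), and 3 to 23 without 1 library. In iFLMdelta they were 0 throughout, in edgeR and DESeq2. The block changed no call of a CBF region. The direction of uncalled folds turned past the end of CBF4 in gFLM (adjusted p = 0.999, 0.999, 0.973 and 1), and past the end of CBF1 and upstream of CBF2 in iFLMbeta (1 in each case). Leaving out a replicate for q-values, ratios and listed genes, leaving out both libraries of replicate 2, recomputing library sizes after the filter and crossing the block were chosen after seeing the data. The causes were not tested.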
